A study of Saccharomyces cerevisiae with 40 samples.

Results

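The genes described here make and break down the reserve carbohydrates of budding yeast or belong to its stress response. The list holds 32 genes named by symbol, in 7 roles: trehalose synthesis, trehalose breakdown, glycogen synthesis, glycogen breakdown, supply of glucose phosphates and UDP-glucose, chaperones and small heat shock proteins, and other stress genes. Probes for all 32 were on the arrays, among 5557 genes in all. Values were present for 29 of them, and 18 had values on at least 30 of the 40 arrays and were tested, so that counts of calls below describe 18 genes and do not stand for the other 14.

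Cells of Saccharomyces cerevisiae strain Σ1278b, a laboratory background able to grow as filaments, were kept in minimum medium with 3% glucose and a single nitrogen source for at least 10 generations and were collected during exponential growth at low density. The 20 sources were alanine, ammonium (as ammonium sulfate), arginine, asparagine, aspartate, citrulline, GABA, glutamate, glutamine, isoleucine, leucine, methionine, ornithine, phenylalanine, proline, serine, threonine, tryptophan, tyrosine and valine, at 10 mM except for tryptophan at 5 mM. The control for every source was the same strain on 10 mM urea, and no group carried a mutation or a further treatment according to the labels. Each 2-colour array compared polyA RNA from cells on a source with polyA RNA from cells on urea, and each source had 2 arrays.

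Trehalose and glycogen are the storage carbohydrates of yeast, and both are built from glucose phosphates through UDP-glucose. Rapid growth with active protein kinase A keeps their genes and many stress genes low, while slow growth, starvation and stress raise them through the transcription factors Msn2 and Msn4. Trehalose also protects proteins and membranes, and chaperones hold or refold proteins that have lost their shape.

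A value below is a log2 ratio of source over urea, so that 1 means 2-fold more RNA on the source and -1 means 2-fold less. A fitted value is given ± its standard error (SE, n = 2 arrays) after correction for a dye effect, and values of single arrays are given without that correction. The SE comes from the spread of the gene over all its arrays with a value, moderated by limma towards the spread of all genes. It does not come from the arrays of that source alone. A gene is said to have risen or fallen on a source where limma's moderated test gave a Benjamini-Hochberg adjusted p under 0.05 over all genes tested on it. The number of arrays limits the precision. The labels do not state whether both arrays of a source had their own culture, and the p-values may thus measure technical spread only. All 20 comparisons share the urea control, so a gene high on many sources cannot be told apart from a gene low on urea. RNA from all cells of a culture was pooled, and a change in every cell cannot be told apart from a larger change in some of them.

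Between 3294 and 5218 genes per array had a value (median 4708), and the arrays of a source correlated across tested genes at 0.372 to 0.811. On 18 sources array 1 had the source in Cy5 and array 2 had urea in Cy5, while on tryptophan and tyrosine both arrays had urea in Cy5. The dye correction of fitted values on tryptophan and tyrosine was thus estimated from the other 18 sources. The dye term passed the test for 47.1% of genes and for 9 of the 18 tested members, for all 9 with a negative sign. As a check of the labels, genes of nitrogen and sulfur pathways were read on their own source: the GABA permease gene UGA4 rose by 4.42 on GABA, the arginase gene CAR1 by 5.47 on citrulline and 1.57 on arginine, and the decarboxylase gene ARO10 by 6.58 on tryptophan and 7.46 on tyrosine, while the sulfate assimilation gene MET3 was at -2.60 on methionine. ARO10 also rose on phenylalanine (4.01), methionine (3.32) and leucine (2.30), and its tyrosine arrays read 5.92 and 8.92. CAR1 was also higher than on arginine on tyrosine (2.48), methionine (2.42), isoleucine (2.11), tryptophan (2.09), threonine (1.81) and ornithine (1.72). It thus does not single out the arginine arrays.

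Of 295 tests of a member on a source, 34 (11.5%) gave a rise, against 10.1% over all genes, and 20 (6.78%) gave a fall, against 9.42%. As a whole the members therefore moved against urea about as often as other genes. The rises were concentrated in few genes: CTT1, TFS1, GSY1 and GRE3 held 29 of the 34, and GDB1 and SPI1 held 12 of the 20 falls. No tested member rose on some sources and fell on others, 15 were called in a single direction, and TPS3, TSL1 and ATH1 were called on no source. In all 54 calls both arrays lay on the side of the call. Leaving out an array at a time from the source concerned, 2 of the 34 rises kept their call without either array, those of CTT1 on ornithine and on phenylalanine, and 1 of the 20 falls did, that of PGM1 on tyrosine.

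By source, the most members rose on phenylalanine, 5 of 18 tested (against 10.6% of all genes tested on it), which were GSY1, HSP12, CTT1, TFS1 and GRE3, and on aspartate, 5 of 16 (against 11.3%), which were GSY1, SSA3, CTT1, TFS1 and GRE3. On ornithine 4 of 16 rose (against 10.5%), on serine 4 of 14 (against 12.7%), on arginine 3 of 16 (against 8.59%) and on glutamine 3 of 11 (against 12.1%). CTT1 and GRE3 were among them on each of these 6 sources. On ammonium 2 of 18 rose (against 10.2%) and on threonine 2 of 16 (against 12.7%), and 1 rose on alanine (of 11, against 9.57%), asparagine (of 14, against 10.4%), glutamate (of 18, against 10.5%), leucine (of 15, against 10.4%), tryptophan (of 14, against 10.3%) and valine (of 15, against 9.48%). No member rose on the other 6 sources. These were GABA (of 16, against 10.2%), isoleucine (of 10, against 5.73%), citrulline (of 15, against 5.25%), methionine (of 14, against 12.7%), proline (of 17, against 9.6%) and tyrosine (of 11, against 8.43%).

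On GABA 3 of 16 members fell (against 11% of all genes), which were GLC3, GDB1 and SPI1, and on asparagine 3 of 14 (against 14.7%), which were NTH1, GDB1 and SPI1. On ammonium 2 of 18 fell (against 10.7%), on glutamate 2 of 18 (against 9.87%) and on threonine 2 of 16 (against 8.8%). A single member fell on citrulline (of 15, against 4.87%), glutamine (of 11, against 12.9%), isoleucine (of 10, against 3.76%) and leucine (of 15, against 8.27%). The same held for methionine (of 14, against 11.1%), proline (of 17, against 7.61%), tryptophan (of 14, against 8.43%) and tyrosine (of 11, against 6.62%). None fell on alanine (of 11, against 12.1%), arginine (of 16, against 8.91%), aspartate (of 16, against 10.1%) or ornithine (of 16, against 10.1%). Nor did any fall on phenylalanine (of 18, against 9.8%), serine (of 14, against 11.3%) or valine (of 15, against 6.87%).

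**Figure D1:**
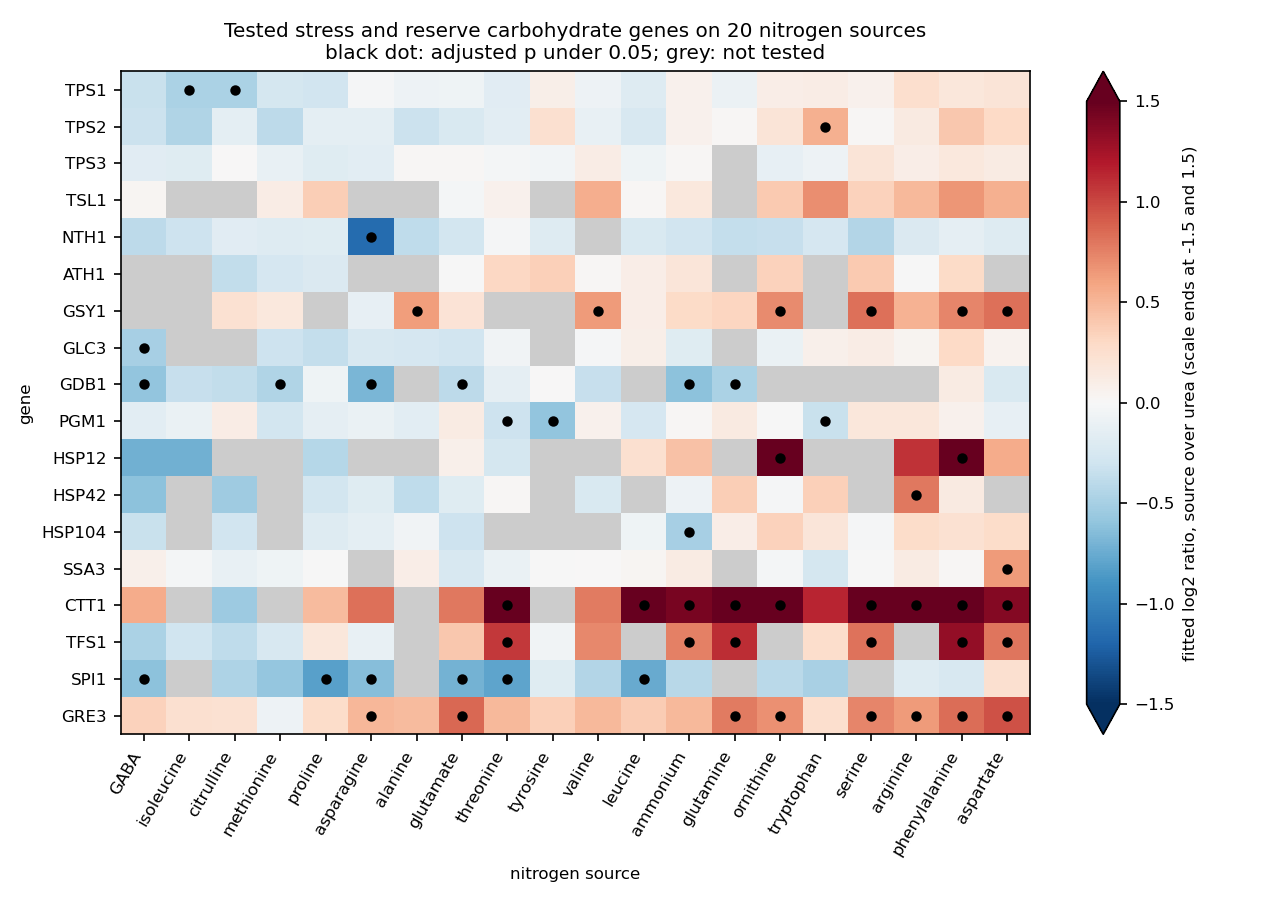
Fitted log2 ratios of source over urea for the 18 tested members (vertical axis) on the 20 sources (horizontal axis, ordered by the median of the members), with a black dot where the adjusted p was under 0.05 and grey where a source was not tested. The row of CTT1 holds 9 dots and that of GRE3 holds 8, all higher than urea, while GDB1 and SPI1 hold 6 each, all lower.

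CTT1, which encodes the cytosolic catalase that breaks down hydrogen peroxide, rose on 9 of 16 tested sources, and 6.56% of tested genes rose on at least 9. Its single arrays ran from -1.18 on citrulline to 3.40 on ornithine, with a median of 1.43, and 32 of 36 lay above 0. The arrays read 2.42 and 2.94 on phenylalanine, 1.77 and 3.40 on ornithine, and 2.54 and 1.68 on threonine. Among sources with both arrays these 3 gave the highest fitted values, 2.68 ± 0.44 on phenylalanine (adjusted p = 0.000327), 2.59 ± 0.44 on ornithine (adjusted p = 0.000287) and 2.11 ± 0.44 on threonine (adjusted p = 0.00184). Arrays of arginine lay far apart at 0.41 and 3.17, and so did those of ammonium at 0.36 and 2.48 and of aspartate at 0.58 and 2.18. CTT1 rose on these 3 sources as well, and on glutamine (arrays 1.40 and 2.14), serine (1.42 and 1.77) and leucine (1.93 and 1.13). A single array of tyrosine read 2.91. Among sources with both arrays the lowest fitted value was -0.55 on citrulline, with arrays of -1.18 and 0.08, which did not pass the test. Array 2 exceeded array 1 on 12 of the 15 sources that had both and opposite dyes. Leaving out array 1 lost the calls on aspartate, glutamine, leucine, serine and threonine (values 0.57 to 1.70, adjusted p 0.108 to 0.605), and leaving out array 2 lost those on ammonium, arginine, aspartate, glutamine and serine (0.82 to 1.94, adjusted p 0.0702 to 0.510).

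TFS1, which encodes an inhibitor of the vacuolar carboxypeptidase Y, rose on 6 of 16 sources, and 11.8% of tested genes rose on at least 6. Single arrays ran from -0.92 on GABA to 1.35 on phenylalanine, with a median of 0.37, and 25 of 36 lay above 0. The arrays read 1.35 and 1.28 on phenylalanine, 0.89 and 1.31 on glutamine, and 1.13 and 0.98 on threonine. On these sources both arrays were higher than any array of GABA, citrulline, isoleucine, methionine, asparagine or proline, whose readings ran from -0.92 to 0.31. Fitted values were 1.31 ± 0.26 on phenylalanine (adjusted p = 0.00160), 1.10 ± 0.26 on glutamine (adjusted p = 0.00396) and 1.06 ± 0.26 on threonine (adjusted p = 0.00687). The gene also rose on serine (0.81), aspartate (0.80) and ammonium (0.76). These last 3 calls were lost when the replicate number replaced the dye term as a block (adjusted p 0.0527 on serine, 0.0613 on aspartate and 0.0761 on ammonium). On tyrosine the arrays disagreed, at 1.03 and -0.70. All 6 calls were lost without array 1 (values 0.75 to 1.09, adjusted p 0.0804 to 0.236), and 4 without array 2, those on ammonium, aspartate, glutamine and serine (0.50 to 1.11, adjusted p 0.0945 to 0.510).

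GRE3, which encodes an aldose reductase, rose on 8 of 20 sources, and 7.92% of tested genes rose on at least 8. Its 40 arrays ran from -0.24 on methionine to 1.08 on aspartate, with a median of 0.55, and 38 lay above 0. The gene was highest on aspartate, at 0.95 ± 0.18 (arrays 1.08 and 0.82, adjusted p = 0.000441), and on glutamate, at 0.86 ± 0.18 (arrays 0.77 and 0.95, adjusted p = 0.00127). It also rose on phenylalanine (0.83), glutamine (0.77), serine (0.74), ornithine (0.69), arginine (0.64) and asparagine (0.50). The last call was lost under the replicate block (adjusted p = 0.0502). Its spread over sources was narrow beside that of CTT1, with an SD of 0.26 around a mean of 0.50 against an SD of 0.83 around a mean of 1.31. Leaving out array 1 lost the calls on asparagine, aspartate, ornithine and phenylalanine (values 0.40 to 0.89, adjusted p 0.0511 to 0.347), and leaving out array 2 lost those on arginine, asparagine, glutamate, glutamine, ornithine, phenylalanine and serine (0.45 to 0.78, adjusted p 0.0713 to 0.348).

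SPI1, which encodes a cell wall protein with a lipid anchor, went the other way and fell on 6 of 16 sources, where 10.2% of tested genes fell on at least 6. Its arrays ran from -1.21 on glutamate to 0.55 on aspartate, with a median of -0.49, and 33 of 36 lay below 0. Among sources with both arrays the lowest fitted values were -0.81 ± 0.21 on proline (arrays -0.74 and -0.88, adjusted p = 0.0119) and -0.79 ± 0.21 on threonine (arrays -0.50 and -1.07, adjusted p = 0.0116). A single array of isoleucine read -1.01. SPI1 also fell on leucine (-0.76), glutamate (-0.71), asparagine (-0.64) and GABA (-0.62), the last of which lost its call under the replicate block (adjusted p = 0.0603). Threonine was thus a source on which CTT1 and TFS1 rose while SPI1 fell. Without array 1 the calls on asparagine, GABA, glutamate, leucine and proline were lost (values -1.01 to -0.29, adjusted p 0.0576 to 0.634), and without array 2 those on asparagine, GABA, leucine, proline and threonine (-0.84 to -0.36, adjusted p 0.123 to 0.524).

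**Figure D2:**
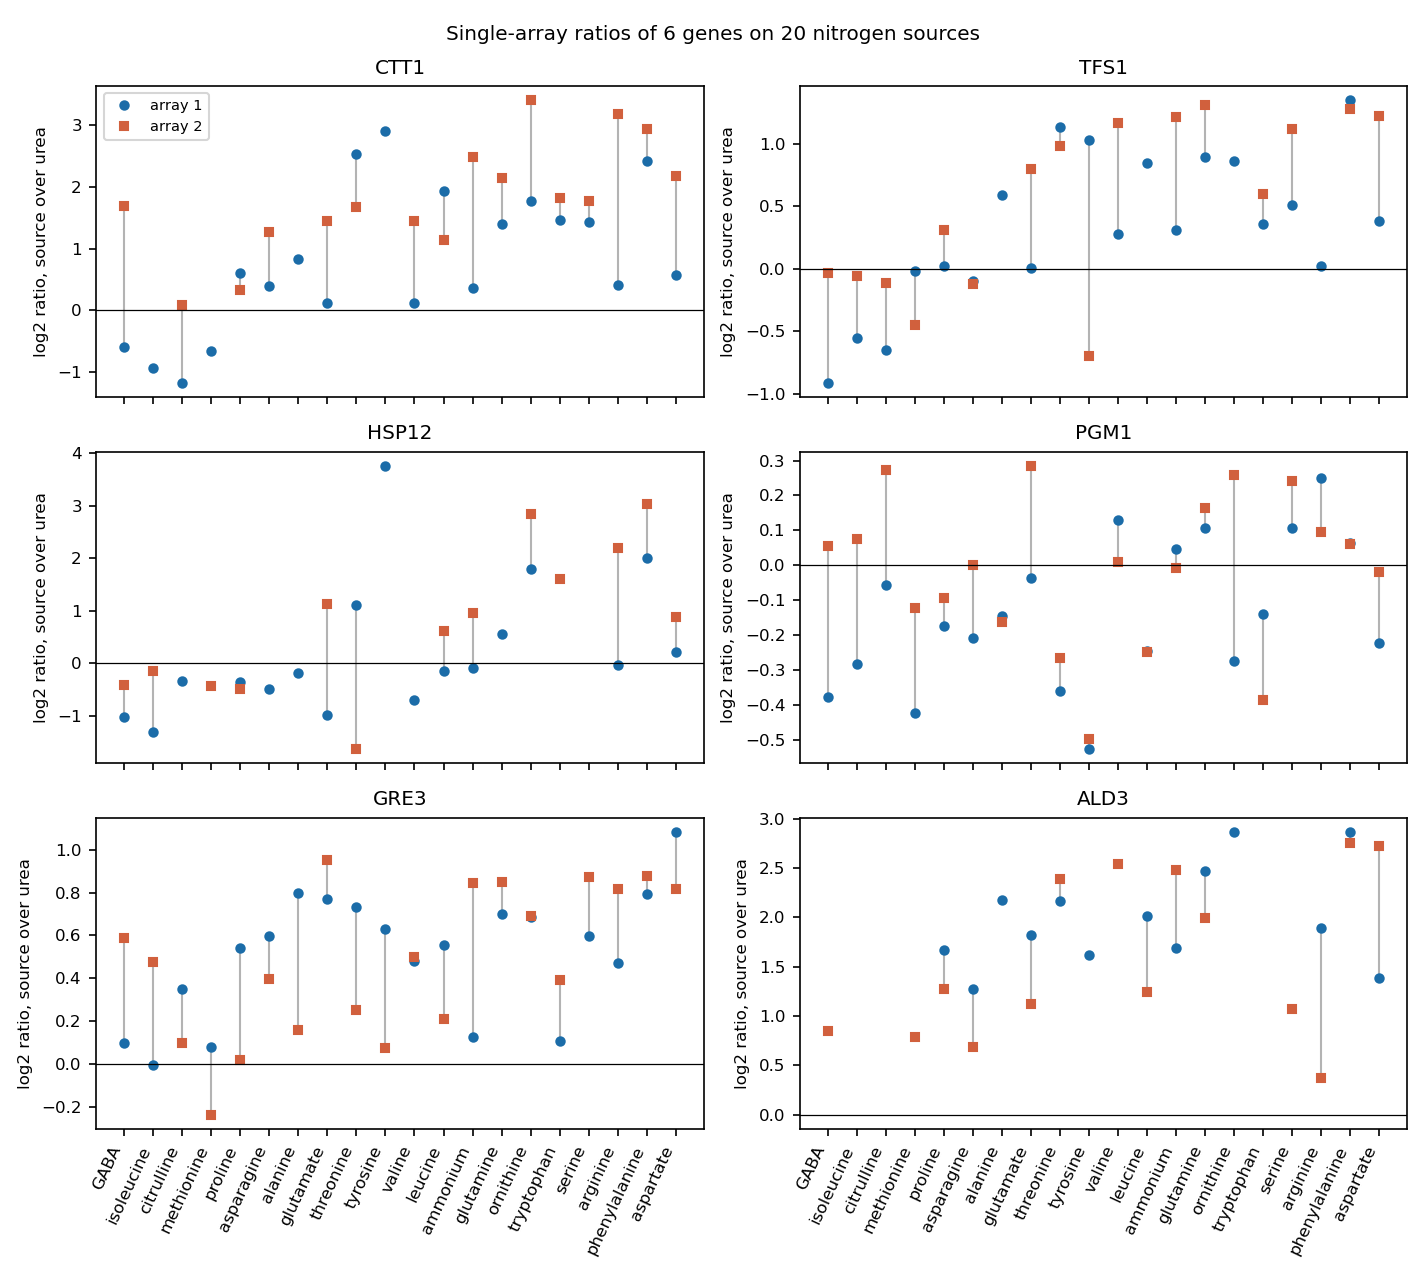
Single-array log2 ratios of source over urea (vertical axes) for CTT1, TFS1, HSP12, PGM1, GRE3 and ALD3 on the 20 sources (horizontal axis, in the order of the members' median), with circles for array 1, squares for array 2 and a grey line joining them. All 27 values of ALD3 and 38 of 40 of GRE3 lie above 0, and the arrays of arginine for CTT1 stand apart at 0.41 and 3.17.

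ALD3, a close copy of ALD2, encodes a cytosolic aldehyde dehydrogenase that acts in the synthesis of beta-alanine. It had values on 27 arrays, too few for the test above, and all 27 lay above 0, from 0.38 on arginine to 2.87 on ornithine with a median of 1.82. The arrays read 2.86 and 2.75 on phenylalanine, 2.17 and 2.39 on threonine, 2.47 and 1.998 on glutamine and 1.69 and 2.48 on ammonium. They read 1.38 and 2.72 on aspartate, 2.02 and 1.24 on leucine, 1.66 and 1.28 on proline, 1.82 and 1.12 on glutamate, 1.89 and 0.38 on arginine and 1.28 and 0.68 on asparagine. Single readings were 2.87 on ornithine, 2.54 on valine, 2.17 on alanine, 1.62 on tyrosine, 1.07 on serine, 0.85 on GABA and 0.79 on methionine. Every reading of ALD3 was thus above 0, and phenylalanine was the source with the highest pair of arrays. Sources with a single reading were not tested, and citrulline, isoleucine and tryptophan gave no reading.

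With the filter lowered to 20 arrays, a setting that takes in 10 further members, ALD3 rose on all 10 sources tested. In that setting 9.93% of tests over all genes gave a rise and 8.85% a fall. The 10 members gave 22 rises and 4 falls in 82 tests, 10 of the rises being ALD3's. Shares of genes rising on many sources were counted at the main filter only, where 6.56% rose on at least 9. Fitted values of ALD3 ran from 0.98 ± 0.33 on asparagine (adjusted p = 0.0445) to 2.81 ± 0.33 on phenylalanine (adjusted p = 7.89e-05). Without array 1 the calls on arginine, asparagine, glutamate, leucine and proline were lost (values 0.41 to 1.38, adjusted p 0.131 to 0.621), and without array 2 those on ammonium, asparagine, aspartate and proline (1.18 to 1.56, adjusted p 0.0710 to 0.208). Without the dye term ALD3 lost its calls on arginine and asparagine (adjusted p 0.0609 to 0.0765). ALD2, which was not a member, rose on 2 of 17 sources and fell on 1, with fitted values from -0.68 on asparagine to 1.55 on GABA. Whether a probe of ALD3 also binds RNA of ALD2 was not tested, and the same holds for the pairs of close copies SSA3 and SSA4, GSY1 and GSY2, and PGM1 and PGM2.

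DDR2, a small stress protein gene of unknown function, and GRE1, which encodes a hydrophilin made in dry or salty conditions, complete the other stress genes. DDR2 had 12 readings, 11 of them on arrays with urea in Cy5, and was not tested. It read 1.56 on phenylalanine, 1.35 on arginine and 0.99 on tryptophan, and was negative on all other arrays with a value. Those read -0.73 and -1.25 on aspartate, -1.14 on valine, -1.33 on threonine, -1.46 on tyrosine, -1.55 on methionine, -1.91 on proline, -1.97 on ammonium and -2.01 on asparagine. GRE1 had 28 readings, from -0.73 on GABA to 1.52 on tryptophan with a median of 0.01. In the setting with the lower filter it rose on phenylalanine (0.67 ± 0.20, arrays 0.72 and 0.63, adjusted p = 0.0305) and ornithine (0.65 ± 0.20, arrays 0.32 and 0.98, adjusted p = 0.0343), and both calls were lost without either array (0.37 to 0.94, adjusted p 0.0661 to 0.504). Without the dye term both were lost as well (adjusted p 0.0589 to 0.0664).

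HSP12, whose small protein stabilises membranes, had the widest range of the tested members. It had values on 30 arrays, from -1.63 on threonine to 3.76 on tyrosine with a median of -0.06, and 14 lay above 0. The arrays read 2.01 and 3.04 on phenylalanine and 1.80 and 2.85 on ornithine. All 4 were above every other array except 1 of arginine (2.20) and the only one of tyrosine (3.76). HSP12 rose on both sources, by 2.53 ± 0.52 on phenylalanine (adjusted p = 0.00341) and 2.33 ± 0.52 on ornithine (adjusted p = 0.00508), which makes 2 of 11 tested. Elsewhere the arrays of a source often disagreed: they read -0.03 and 2.20 on arginine, -0.99 and 1.14 on glutamate, and 1.11 and -1.63 on threonine. They were at -1.02 and -0.41 on GABA, -1.30 and -0.14 on isoleucine, -0.36 and -0.49 on proline and -0.14 and 0.62 on leucine. Ammonium gave -0.08 and 0.97, and aspartate 0.22 and 0.88. Apart from that of tyrosine, single readings ran from -0.70 on valine through -0.48 on asparagine, -0.43 on methionine, -0.34 on citrulline, -0.19 on alanine and 0.57 on glutamine to 1.61 on tryptophan. Both calls were lost without either array (values 2.14 to 2.71, adjusted p 0.0638 to 0.124).

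Of the chaperone genes, HSP104 encodes the cytosolic protein disaggregase, HSP42 and HSP26 small heat shock proteins, SSA3 and SSA4 stress-induced chaperones of the Hsp70 family, and HSP78 the mitochondrial disaggregase. The group gave 4 rises (6.9%, against 10.1% over all genes) and 1 fall (1.72%, against 9.42%) in 58 tests, the highest being HSP12 on phenylalanine and the lowest HSP104 on ammonium. HSP104 read -0.46 and -0.54 on ammonium, where it fell (-0.50 ± 0.17, adjusted p = 0.0453), and its 35 arrays ran from -0.70 on GABA to 0.89 on arginine. The other array of GABA read 0.04 and that of arginine -0.35. HSP42 rose on arginine alone of 14 sources (0.80 ± 0.24, adjusted p = 0.0264), from arrays of 0.00 and 1.59, and SSA3 on aspartate alone of 18 (0.64 ± 0.15, adjusted p = 0.00430), from arrays of 0.11 and 1.17. Those rises rest on array 2: without it the values were 0.16 for HSP42 (adjusted p = 0.812) and 0.17 for SSA3 (adjusted p = 0.691). The fall of HSP104 was lost without either array (-0.75 and -0.25, adjusted p 0.0564 and 0.639). HSP42 ran from -1.17 on GABA to 1.59 on arginine and SSA3 from -0.35 on glutamate to 1.17 on aspartate.

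HSP26 had 26 readings, from -0.51 on isoleucine to 1.31 on ornithine, and SSA4 23, from -0.43 on GABA to 1.12 on ammonium. With the lower filter HSP26 rose on ornithine (0.82 ± 0.17, arrays 0.32 and 1.31, adjusted p = 0.00568), valine (0.56) and phenylalanine (0.54), and SSA4 on arginine (0.79 ± 0.21, arrays 0.60 and 0.98, adjusted p = 0.0265) and ammonium (0.75). Without array 1 HSP26 lost phenylalanine and valine (0.45 and 0.76) and SSA4 lost arginine (0.89, adjusted p = 0.119), and without array 2 both genes lost all their calls (HSP26 0.36 to 0.63, SSA4 0.43 to 0.68). Without the dye term SSA4 lost both calls (adjusted p 0.0590 and 0.0592) and HSP26 those on phenylalanine and valine (adjusted p 0.149 and 0.157). HSP78 had no value on any array.

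TPS1 encodes the trehalose-6-phosphate synthase, TPS2 the phosphatase that completes the synthesis, and TPS3 and TSL1 regulatory subunits of the complex. In 73 tests the 4 trehalose synthesis genes gave 1 rise (1.37%, against 10.1% over all genes) and 2 falls (2.74%, against 9.42%). TPS1 ran over its 40 arrays from -0.77 on citrulline to 0.39 on arginine, with a median of -0.04. It fell on isoleucine (-0.48 ± 0.13, arrays -0.31 and -0.65, adjusted p = 0.0188) and citrulline (-0.47 ± 0.13, arrays -0.77 and -0.18, adjusted p = 0.0203). The call on isoleucine was lost without array 2 (-0.27, adjusted p = 0.463) and that on citrulline without array 1 (-0.19, adjusted p = 0.572). At the other end TPS1 read 0.11 and 0.39 on arginine, 0.14 and 0.25 on aspartate, 0.27 and 0.06 on phenylalanine and 0.09 and 0.18 on tryptophan, with no call.

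TPS2 ran from -0.63 on isoleucine to 0.80 on tyrosine, with a median of -0.11, and rose on tryptophan alone (0.53 ± 0.17, adjusted p = 0.0336). Its arrays there read 0.60 and 0.67, and those on phenylalanine 0.29 and 0.52 and on aspartate 0.16 and 0.45, while tyrosine gave 0.80 and -0.10. The fitted value on tryptophan lies below both arrays there, since it includes the dye correction. The call was lost without either array of tryptophan (0.56 and 0.50, adjusted p 0.140 and 0.244). TPS3 stayed within -0.38 on GABA and 0.39 on arginine over 39 arrays. TSL1 ran from -0.35 on methionine to 1.04 on arginine over 34 arrays and lay above 0 on 25 of them, with no call on any of 14 sources.

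Trehalose is broken down by the neutral trehalases NTH1 and NTH2 and the acid trehalase ATH1, and in 32 tests this group gave no rise, against 10.1% over all genes, and 1 fall (3.12%, against 9.42%). NTH1 was below 0 on 34 of 39 arrays, from -1.93 on asparagine to 0.11 on threonine, with a median of -0.28. It fell on asparagine (-1.16 ± 0.19, adjusted p = 6.65e-05), from arrays that lay far apart at -1.93 and -0.39, and the call was lost without array 1 (-0.40, adjusted p = 0.129). Apart from the -1.93, its arrays lay between -0.56 and 0.11. ATH1 ran from -0.47 on citrulline to 0.69 on tyrosine over 33 arrays, and NTH2 had no value.

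Glycogen synthesis starts on the glycogenins GLG1 and GLG2, is carried on by the synthases GSY1 and GSY2 and the branching enzyme GLC3, and is promoted by GAC1, a regulatory subunit of the phosphatase Glc7. GSY1 rose on 6 of 14 sources, where 11.8% of tested genes rose on at least 6. Its 33 arrays ran from -0.40 on threonine to 1.26 on aspartate, with a median of 0.46, and 24 lay above 0. The arrays read 0.40 and 1.26 on aspartate, 0.60 and 1.04 on serine, and 0.79 and 0.66 on phenylalanine. They were similar to one another on ornithine (0.58 and 0.83), valine (0.61 and 0.67) and alanine (0.74 and 0.51), and GSY1 rose on all 6 of these sources. Fitted values ran from 0.62 ± 0.19 on alanine (adjusted p = 0.0270) to 0.83 ± 0.19 on aspartate (adjusted p = 0.00451). On ammonium (-0.10 and 0.67) and glutamate (-0.28 and 0.70) the arrays fell on both sides of 0. Without array 1 the calls on alanine, ornithine, phenylalanine, serine and valine were lost (values 0.36 to 0.91, adjusted p 0.0542 to 0.460), and without array 2 those on alanine, aspartate, ornithine, serine and valine (0.51 to 0.89, adjusted p 0.0501 to 0.334).

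GSY2, the predominant glycogen synthase, had 29 readings from -0.32 on proline to 1.39 on phenylalanine, and 25 lay above 0. With the lower filter it rose on phenylalanine (1.30 ± 0.27, arrays 1.22 and 1.39, adjusted p = 0.00420) and arginine (0.97 ± 0.27, arrays 0.57 and 1.37, adjusted p = 0.0233). Without array 1 the call on phenylalanine was lost (1.46, adjusted p = 0.0550), and without array 2 both were (0.47 and 1.15). GLC3 ran from -0.84 on isoleucine to 0.57 on arginine over 36 arrays and fell on GABA alone (-0.50 ± 0.16, arrays -0.72 and -0.27, adjusted p = 0.0312), a call lost without either array (-0.46 and -0.53, adjusted p 0.234 and 0.236). GLG1 ran from -0.50 to 0.23 over 22 arrays, GLG2 from -0.40 to 0.59 over 22 and GAC1 from -0.47 to 0.42 over 29, and none of the 3 was called with the lower filter. GLG1 and GLG2 had 6 and 7 readings on arrays with urea in Cy5 and 16 and 15 on the others.

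Genes of glycogen breakdown were mostly lower than on urea. GDB1 encodes the debranching enzyme and GPH1 the phosphorylase that releases glucose 1-phosphate. GDB1 fell on 6 of 14 sources, where 10.2% of tested genes fell on at least 6, and 30 of its 34 arrays lay below 0, from -0.77 on asparagine to 0.24 on phenylalanine with a median of -0.34. Arrays read -0.61 and -0.77 on asparagine, -0.73 and -0.50 on ammonium, and -0.65 and -0.54 on GABA. They read -0.53 and -0.43 on glutamine, -0.18 and -0.72 on methionine, and -0.53 and -0.26 on glutamate, and GDB1 fell on all 6. The arrays of phenylalanine, at 0.24 and 0.01, lay above all 12 of these. Fitted values ran from -0.39 ± 0.13 on glutamate (adjusted p = 0.0438), a call lost under the replicate block (adjusted p = 0.0521), to -0.69 ± 0.13 on asparagine (adjusted p = 0.000756). Without array 1 the calls on ammonium, GABA, glutamate and glutamine were lost (values -0.57 to -0.27, adjusted p 0.0782 to 0.472), and without array 2 those on asparagine, GABA, glutamate, glutamine and methionine (-0.62 to -0.13, adjusted p 0.0805 to 0.743).

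GPH1 had 29 readings, from -1.76 on GABA to 1.33 on tyrosine with a median of -0.76, and 23 lay below 0. Its arrays read -1.76 and -1.35 on GABA, 0.88 and 0.78 on phenylalanine, and 1.33 and 0.49 on tyrosine, and the only one of tryptophan read 0.59. The aromatic amino acids were thus sources on which GPH1 was above urea, and a single reading of 0.24 on ornithine was the only other one above 0. With the lower filter GPH1 rose on phenylalanine (0.83 ± 0.23, adjusted p = 0.0235) and tyrosine (0.82 ± 0.25, adjusted p = 0.0388) and fell on GABA (-1.56 ± 0.23, adjusted p = 0.000354), ammonium (-0.82) and methionine (-0.77). GPH1 differed among sources in that setting (F = 6.13, adjusted p = 0.00805), where 20.2% of genes did. Among the 10 added members PGM2 and GRE1 did so too (adjusted p = 0.0377 for each). The F-test also used sources with a single array, and each of these genes had both arrays on 9 sources. The calls of GPH1 on ammonium, methionine and phenylalanine were lost without array 1 or without array 2. Its call on tyrosine was lost without array 1, while that on GABA was kept in both cases. Values of the lost calls ran from -0.99 to 0.67 without array 1 and from -1.06 to 0.99 without array 2.

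PGM1 and PGM2 encode the minor and the major phosphoglucomutase, which turn glucose 6-phosphate into glucose 1-phosphate, and UGP1 makes UDP-glucose from it. PGM1 was measured on all 40 arrays, from -0.53 on tyrosine to 0.28 on glutamate with a median of -0.05. Its arrays read -0.53 and -0.50 on tyrosine, -0.14 and -0.39 on tryptophan, and -0.36 and -0.27 on threonine, and it fell on these 3 sources. They read -0.25 and -0.25 on leucine, -0.42 and -0.12 on methionine and 0.06 and 0.06 on phenylalanine, without a call. Both arrays of tyrosine lay below every other array. Fitted values were -0.59 ± 0.11 on tyrosine (adjusted p = 0.000398), -0.34 ± 0.11 on tryptophan (adjusted p = 0.0266) and -0.31 ± 0.10 on threonine (adjusted p = 0.0307). That of tyrosine lies below both its arrays, since it includes a dye correction estimated from other sources. The call on tryptophan was lost under the replicate block (-0.26, adjusted p = 0.0986) and without array 2 (-0.21, adjusted p = 0.431), and that on threonine without either array (-0.34 and -0.28, adjusted p 0.164 and 0.287).

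PGM2 had 29 readings, from -1.01 on isoleucine to 1.09 on arginine with a median of -0.40. With the lower filter it rose on phenylalanine (0.74 ± 0.20, arrays 0.46 and 1.03, adjusted p = 0.0203) and fell on methionine (-0.79 ± 0.20, arrays -0.75 and -0.83, adjusted p = 0.0117). The call on phenylalanine was lost without either array (0.75 and 0.74) and that on methionine without array 2 (-0.42), and both without the dye term (adjusted p 0.0974 to 0.132). On tyrosine, where PGM1 was lowest, the only reading of PGM2 was 0.67. UGP1 had no value.

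**Figure D3:**
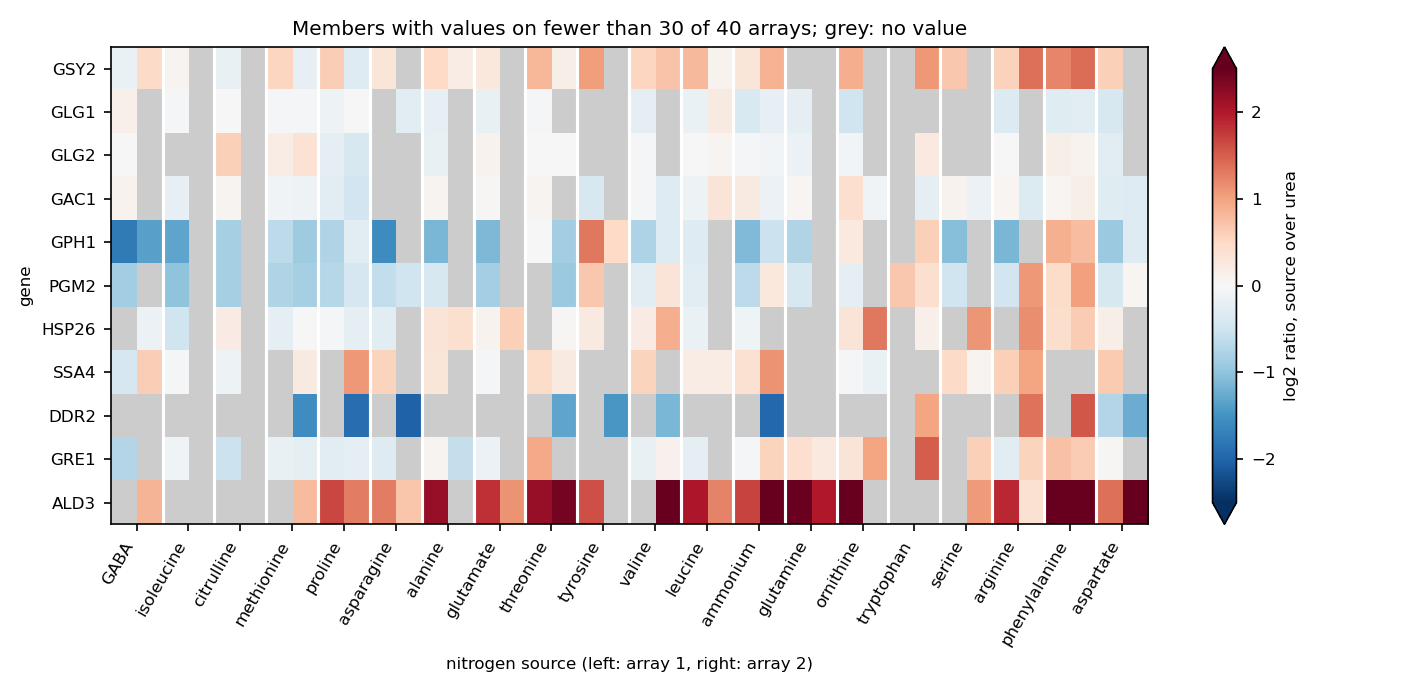
Single-array log2 ratios of source over urea for the 11 members with values on fewer than 30 arrays (vertical axis), with array 1 left and array 2 right for each source (horizontal axis) and grey where no value was given. GPH1 is below 0 on 23 of 29 arrays and above 0 on those of phenylalanine and tyrosine, ALD3 is above 0 on all 27, and 11 of the 12 values of DDR2 are on array 2.

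Whether the members differed among the sources themselves was asked with an F-test over sources, in which a urea level common to all arrays cancels. Differences between urea cultures, if there were several, would not cancel. It called 5 of the 18 members (27.8%), against 23.6% of all tested genes. They were TFS1 (F = 4.21, adjusted p = 0.00863), PGM1 (F = 3.71, adjusted p = 0.0105), HSP12 (F = 3.70, adjusted p = 0.0291), CTT1 (F = 3.57, adjusted p = 0.0189) and TPS1 (F = 2.70, adjusted p = 0.0452). GSY1 (F = 2.70, adjusted p = 0.0654), GDB1 (F = 2.69, adjusted p = 0.0651) and TPS2 (F = 2.52, adjusted p = 0.0594) came next without passing. Leaving out each of the 40 arrays in turn, TFS1, PGM1 and CTT1 kept the call every time, with adjusted p of up to 0.0199, 0.0286 and 0.0464. HSP12 lost it without either array of phenylalanine or ornithine, without array 1 of tyrosine or without array 2 of GABA (adjusted p up to 0.0656). The F-test also took in sources with a single array, and HSP12 had only that 1 array on tyrosine. TPS1 lost the call in 27 of the 40 cases (adjusted p up to 0.0790) and under the replicate block (adjusted p = 0.0509). HSP104 passed under that block (adjusted p = 0.0391). Without the dye term no member passed the F-test, TFS1, PGM1 and CTT1 included.

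The median of the tested members ran from -0.33 on GABA, -0.30 on isoleucine, -0.29 on citrulline and -0.25 on methionine to 0.21 on arginine, 0.26 on phenylalanine and 0.29 on aspartate, while the median of all tested genes stayed between -0.01 and 0.00. On phenylalanine 16 of 18 members were above 0, and the arrays' medians were close, at 0.25 and 0.23. On arginine they stood apart at -0.05 and 0.56, and on GABA at -0.60 and -0.05. Array 2 of arginine was the highest array of TPS1, TPS3, TSL1, GLC3, PGM2, HSP42 and HSP104. Array 1 of GABA was the lowest of TPS3, GPH1, HSP42, HSP104, SSA4, TFS1 and GRE1. Ranges of these genes that end on arginine or GABA thus rest on a single array. Over the 18 sources with opposite dyes the median of array 2 exceeded that of array 1 on 12, and the medians of the arrays had a Pearson r of 0.45 and a Spearman rho of 0.53, a description over sources that share the urea control. Ribosomal protein genes had a median below 0 on 15 sources, from -0.39 on glutamate to 0.18 on asparagine. Over the 20 sources the members' median and theirs had an r of -0.61 and a rho of -0.57, again from the same arrays. The part of what moved the ribosomal protein genes in the members' values was not tested.

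**Figure D4:**
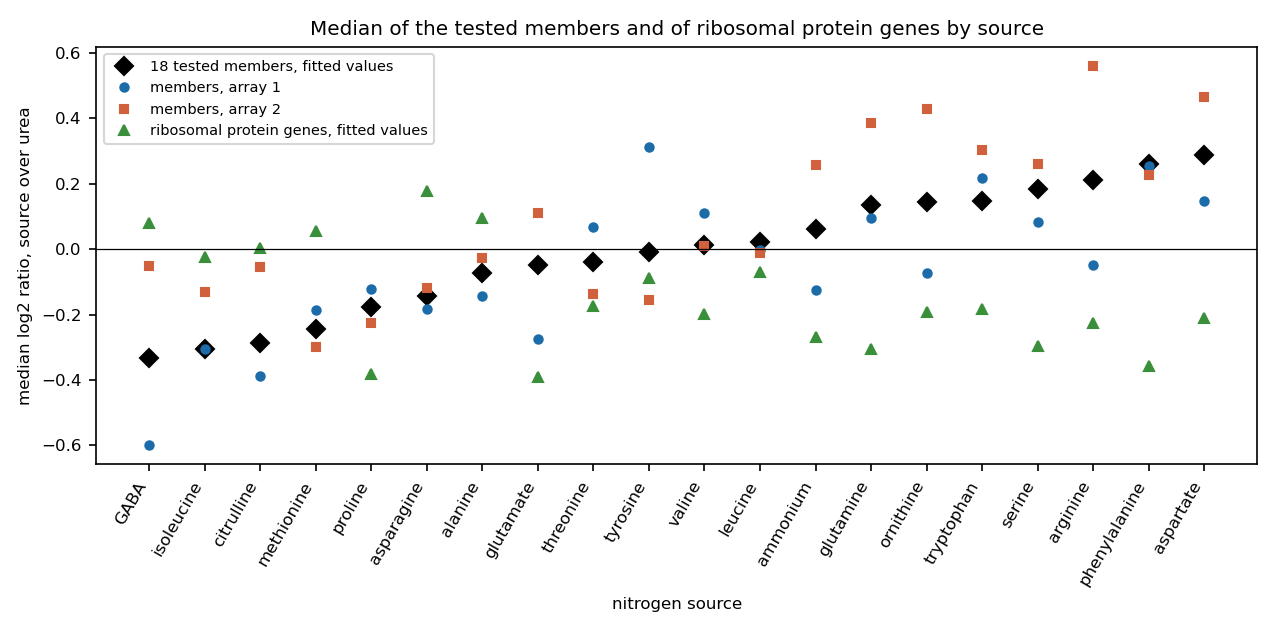
Median log2 ratio of source over urea (vertical axis) on each source (horizontal axis): diamonds for fitted values of the tested members, circles and squares for the members on array 1 and array 2, and triangles for ribosomal protein genes. The members' median runs from -0.33 on GABA to 0.29 on aspartate, and the arrays of arginine stand apart at -0.05 and 0.56.

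Fitted values of the members mostly correlated with one another. Over 152 pairs of tested members the Pearson r of fitted values over sources had a median of 0.50 and ran from -0.31 to 0.88, with 141 above 0, while the median over pairs of all tested genes was 0.0004. The pairs with the highest r were ATH1 with CTT1 (0.88 over 11 sources) and CTT1 with TFS1 (0.87 over 13). On arrays with the source in Cy5 alone the median was 0.45, and with urea in Cy5 alone 0.52. PGM1, NTH1 and SSA3 followed the others least, with a mean r of 0.14, 0.14 and 0.22. These values share arrays and the urea control, and no test was made of them. Within a tested member, the r of array 1 with array 2 over sources with opposite dyes ran from -0.23 (TSL1) to 0.77 (TFS1). Whether the members share a pattern of sources or of single arrays was not tested.

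The amino acids that leave fusel alcohols when used as nitrogen sources (isoleucine, leucine, methionine, phenylalanine, tryptophan, tyrosine and valine) were compared with the 13 other sources, each source counting once. None of 15 members passed limma's test, against 2.92% of all genes, and 1 had an unadjusted p under 0.05, against 22% of all genes, which was PGM1 (-0.18 ± 0.08, unadjusted p = 0.0412, adjusted p = 0.203). The largest differences, fusel class minus the others, were 0.30 ± 0.44 for CTT1, -0.22 ± 0.11 for GRE3 and 0.20 ± 0.12 for GDB1. Means for CTT1 were 1.53 (SD 0.82, n = 4 sources) and 1.23 (SD 0.85, n = 12), so that the difference was smaller than the spread within each class.

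Related molecules were compared in 9 pairs of sources at matched concentration, with p-values adjusted over all genes and pairs. Of 112 tests of members 2 passed, against 1.54% over all genes, and 15 had an unadjusted p under 0.05, where 12.1% of tests over all genes did, so that both counts were close to the background. PGM1 was lower on tyrosine than on phenylalanine, which lacks the hydroxyl group of tyrosine: the arrays read -0.53 and -0.50 against 0.06 and 0.06, and the difference was -0.65 ± 0.15 (95% confidence interval -0.95 to -0.35, adjusted p = 0.0190). With the replicate block it was -0.57 (adjusted p = 0.0626), and the call was also lost without either array of tyrosine (adjusted p = 0.0768 and 0.0735) and without array 1 of phenylalanine (adjusted p = 0.146). Both arrays of tyrosine had the same dye orientation, unlike those of phenylalanine, so the dye correction on tyrosine came from other sources. TPS1 was lower on citrulline than on arginine, whose side chain ends in a guanidino group in place of the ureido group of citrulline: the arrays read -0.77 and -0.18 against 0.11 and 0.39, and the difference was -0.72 ± 0.18 (interval -1.10 to -0.35, adjusted p = 0.0403). Under the replicate block its adjusted p was 0.05003, just above the threshold, and the call was lost without array 1 of citrulline (-0.44, adjusted p = 0.382) and without array 1 (-0.85, adjusted p = 0.0548) or array 2 of arginine (-0.60, adjusted p = 0.237). It was lost as well with array weights (adjusted p = 0.0961) and without the dye term (adjusted p = 0.0779), as was that of PGM1 without the dye term (adjusted p = 0.188).

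In the same pairs CTT1 differed by -2.34 ± 0.62 (interval -3.64 to -1.05, adjusted p = 0.0649) and HSP42 by -1.33 ± 0.34 (interval -2.04 to -0.63, adjusted p = 0.0529) for citrulline minus arginine, and TFS1 by -1.36 ± 0.38 (interval -2.15 to -0.57, adjusted p = 0.0832) for tyrosine minus phenylalanine, none past the threshold. Arrays lay far apart here: arginine read 0.41 and 3.17 for CTT1 and 0.00 and 1.59 for HSP42, and tyrosine 1.03 and -0.70 for TFS1. No member passed in the other 7 pairs. For asparagine minus aspartate NTH1 differed by -0.97 (interval -1.52 to -0.41), with asparagine arrays of -1.93 and -0.39, and GSY1 by -0.95 (-1.52 to -0.37). The ornithine minus arginine differences were 1.24 for HSP12 (-0.33 to 2.81) and -0.82 for HSP42 (-1.52 to -0.11). For glutamine minus glutamate CTT1 differed by 0.98 (-0.31 to 2.28) and TFS1 by 0.70 (-0.08 to 1.47). For GABA minus glutamate TFS1 differed by -0.88 (-1.65 to -0.10) and HSP12 by -0.79 (-2.36 to 0.77). Threonine minus serine gave 0.51 for CTT1 (-0.79 to 1.80) and -0.49 for PGM1 (-0.79 to -0.19). The branched amino acids gave -0.96 for HSP12 (-2.53 to 0.61) and -0.29 for TPS1 (-0.66 to 0.09) in isoleucine minus leucine, and -0.75 for CTT1 (-2.04 to 0.55) and 0.54 for GSY1 (-0.03 to 1.12) in valine minus leucine. These intervals leave room for differences of several-fold in CTT1 and HSP12.

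Other genes around these pathways were read from lists of their own, beside 10.1% of tests with a rise and 9.42% with a fall over all genes. Other chaperone genes of the cytosol and mitochondria rose in 91 of 298 tests (30.5%) and fell in 3 (1.01%), with a median of 0.22; HSP60, the mitochondrial chaperonin, rose on 11 of 20 sources (highest 1.09 on threonine), and SSE2, a nucleotide exchange factor of Hsp70, on 2 of 12. Glycerol genes rose in 47 of 116 tests (40.5%) and fell in 11 (9.48%), with a median of 0.29; GPD2, a glycerol 3-phosphate dehydrogenase, rose on 18 of 20 sources, and STL1, a glycerol importer, on 4 of 12. General stress genes under Msn2 and Msn4 rose in 38 of 326 tests (11.7%) and fell in 29 (8.90%), close to those shares, with a median of 0.02. Of these 19 genes 11 (57.9%) differed among sources, against 23.6% of all tested genes, led by APE1, a vacuolar aminopeptidase that fell on 15 of 20 sources (lowest -1.49 on asparagine), and ALD4, a mitochondrial aldehyde dehydrogenase that rose on 2 and fell on 5. Antioxidant genes gave 24 rises and 24 falls in 278 tests (8.63% each, close to the background), with a median of 0.00; AHP1, a thiol peroxidase, rose on 3 of 17, and CTA1, the peroxisomal catalase, on none of 14. Unlike CTT1, whose mean over sources was 1.31, CTA1 had a mean of 0.06.

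The list of hexose phosphorylation and reserve regulators gave 22 rises (9.73%, against 10.1% over all genes) and 31 falls (13.7%, against 9.42%) in 226 tests, with a median of 0.00. PIG2, a putative regulatory subunit of Glc7, rose on 13 of 19 sources, up to 2.03 on ornithine, and PHO85, a cyclin-dependent kinase that restrains glycogen storage, fell on 9 of 15, down to -0.80 on asparagine. Stress regulators gave 43 rises (14.7%) and 31 falls (10.6%) in 293 tests, with a median of -0.02. MSN4 rose on 8 of 17 sources, up to 1.46 on methionine, and YAP1, a transcription factor of the oxidative stress response, fell on 11 of 19, down to -0.47 on glutamine. On methionine, where MSN4 was highest, none of the 14 tested members rose (against 12.7% of all genes) and 1 fell (against 11.1%). The relation of MSN4 RNA to the members was not tested.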

How the data were processed

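The authors deposited 1 log2 ratio per spot, Cy5 over Cy3 per the labels, in 2 tables. That the log base is 2 is an assumption. Normalization, background correction and scanner: not given in the sources used here, nor is whether the tables were normalized together. Each table had 12800 probes, of which 10890 and 11188 named 1 gene through the platform annotation and 1910 and 1612 named none. Spots of a gene were averaged and ratios turned to source over urea. No column of another sample was found.

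With limma 3.58.1 in R 4.3.3, each gene was fitted over 40 arrays with a term per source and a dye term (19 residual degrees of freedom for genes on all arrays, prior 6.27, median residual SD 0.168). Of 5557 genes, 4332 with values on at least 30 arrays were tested, two-sided. Source, pair and class tests used only sources with both arrays, while the F-test also took in sources with a single array. Benjamini-Hochberg adjustment ran over genes within a source, over genes for the F-test and the class, and over genes and pairs for the 9 pairs. For 18 sources the table, the dye orientation and the replicate number go together and cannot be told apart. Differences between replicates of a source correlated across sources over 0.1 in all 153 pairs (lowest 0.127, median 0.438). These pairs are among the same 18 sources, so the correlation cannot tell a pairing of arrays by replicate number from a dye effect. A fit with the replicate number as a block is given where it ends a call. The code was tested on simulated data.

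Members, lists and the rule for named genes were chosen with earlier results of these data known. By that rule all 32 members are named, with array values for the 8 members with the largest F and for those under 30 arrays (here every array in the plots or by range, and the arrays of each source called), the extreme calls of each role, the class and pair calls or else the largest differences, and up to 2 genes per other list. Alternatives were no dye term, the block, subtracting array medians, other filters, the median of spots, array weights, leaving out tryptophan and tyrosine, other classes and leaving out arrays. Leaving out arrays under the lower filter was added after seeing the data. No sequence is shown because no sequence table was used here.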

Additional observations from a re-analysis of the deposited data

Results flagged for a closer look

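In 2 of the pair comparisons the effect of a source against urea differed between related molecules by a test of the difference itself. PGM1 lay -0.65 apart on the log2 scale for tyrosine minus phenylalanine, with fitted values of -0.59 and 0.06 against urea. TPS1 lay -0.72 apart for citrulline minus arginine, with fitted values of -0.47 and 0.25. Both calls were lost when the replicate number was taken as a block, as given with the comparison of pairs above.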

How the results depend on the processing

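The 34 rises and 20 falls of members against urea became 20 and 12 without the dye term, 11 and 5 over genes on all 40 arrays, and 55 rises over genes on at least 20 arrays. Leaving out an array at a time gave 29 to 42 rises and 16 to 23 falls. The 5 members that differed among sources became 0 without the dye term, 3 over genes on all 40 arrays, 9 with array weights and 3 to 8 when an array was left out. The lowest of these came without array 1 of phenylalanine or ornithine or array 2 of GABA or ornithine, and the highest without array 1 of arginine. The 2 calls in pairs became 0 without the dye term, 0 with the replicate block, 5 with array weights, 1 without tryptophan and tyrosine, 4 when adjusted within each pair, and 1 to 5 when an array was left out (5 without array 1 of arginine). The class comparison gave 0 calls under every alternative run, and no value changed its sign against a call. With the replicate block 30 of the 34 rises and 17 of the 20 falls kept their call, and without the dye term 20 and 12 did. Subtracting array medians and taking the median of spots kept all 54. The causes were not tested, apart from the filters, which change how many genes and sources are tested. With 2 arrays a source and missing spots on many of them, 14 members could not be tested at the main filter, and a missing value cannot be read as a low level.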
